A study of Rattus norvegicus with 21 samples.

Results

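Spinal cord kept in culture for 4 hr was compared with freshly dissected spinal cord of the rat, which asks which transcripts differ once the cord has been removed and cultured. The comparison takes 6 of the 21 2-colour arrays of a series on anti-inflammatory compounds in spinal cord injury, chosen by their titles and group descriptions. The Uninjured group has 3 arrays, each carrying RNA of fresh cord with no culture and no treatment. The Injured 4 hr group has 3 arrays of unpooled cultures that received PBS, a buffered saline that is the vehicle of some of the drugs tested elsewhere in the series. In both groups the second channel held a pool of PBS-treated 4 hr cultures, so the pool cancels in the difference if it was the same preparation. The labels do not give strain, age, sex, level of the cord, culture medium, kind of cut, or whether the replicates came from separate animals, so each p-value rests on array-to-array spread that may be technical only. Injury and culture always occur together here, and their effects cannot be told apart.

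Cutting a cord severs axons and vessels and ends its blood supply. Resident microglia, astrocytes and vessel cells are known to answer tissue damage by releasing chemokines, which attract leukocytes, and cytokines, which carry the alarm to other cells. Much of this response runs through the transcription factor NF-kB, whose targets include its own inhibitors, while stressed cells of any type make heat shock proteins and early response transcription factors. Explanted cord has no circulation, so leukocytes cannot be recruited from the blood.

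Between 4381 and 4915 of 5376 spots had a value on the 6 arrays. A deposited value is a log2 ratio of sample over pool; this direction follows the order of the RNAs in the titles, which makes it likely but not certain. Median ratios of the Uninjured arrays were -3.91, -4.12 and -3.09, against -2.26, -2.20 and -2.12 in Injured 4 hr, with no overlap (exact permutation test, 2-sided, p = 0.1, the smallest that 3 against 3 arrays allow). The interquartile range was 2.257 ± 0.055 (SD, n = 3) in Uninjured and 0.943 ± 0.043 (SD, n = 3) in Injured 4 hr. Control spots of Gapdh, a glycolytic enzyme printed at 51 places, averaged 0.158 ± 0.344 and -0.039 ± 0.068 (SD, n = 3 each; exact permutation p = 0.4). Because the array medians differ this much, each value below is a centred ratio, the deposited log2 ratio minus the median of its array, and a change is a change relative to the median probe. Replicates correlated across probes with r between 0.88 and 0.92 in Uninjured and between 0.85 and 0.86 in Injured 4 hr, as a description.

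**Figure D1:**
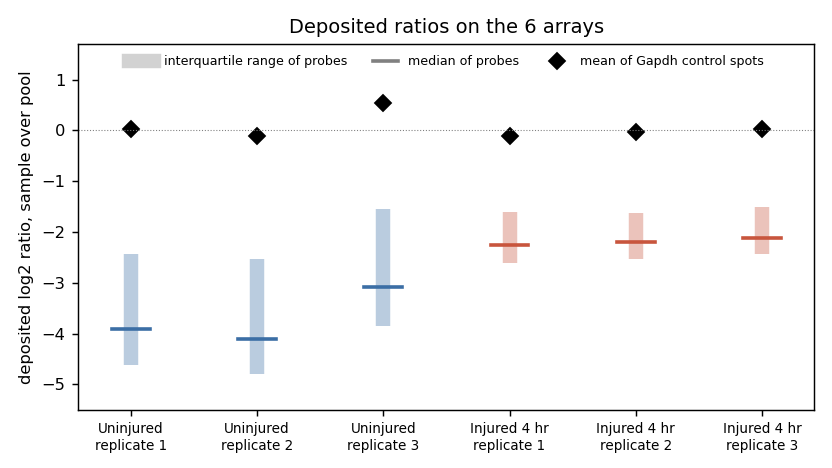
Deposited log2 ratios (vertical axis, sample over pool) on the 3 Uninjured and 3 Injured 4 hr arrays. Bars span the interquartile range of all measured probes, lines mark the medians and diamonds the mean of the Gapdh control spots; the Uninjured medians lie between -4.12 and -3.09 and below all 3 Injured 4 hr medians, while Gapdh lies near 0 in both groups.

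Of 4823 probes with at least 2 values in each group, 41 were called higher and 618 lower in cultured cord at an adjusted p of 0.05 in limma, which is 0.850% and 12.8% of the probes. The 3 cultured and 3 fresh values did not overlap at 1057 probes (21.9%) that were higher in culture and 1562 (32.4%) that were lower. All 41 probes called higher and 616 of the 618 called lower are among these. Most genes named below were drawn from them, so a lack of overlap adds no support to a call. Leaving out any 1 of the 6 arrays brought the calls from 659 down to between 327 and 474. The split depends strongly on the scaling. Without centring, where the median difference is 1.5 log2 units higher, 2389 probes were called higher and 14 lower (0.290%), so 99.4% of the calls were rises. Rises made up 99.6% of the calls after centring on Gapdh, 72.2% of 18 calls after quantile normalization and 89.7% of 29 calls after scaling to equal spread, against 6.22% in centred ratios. A fit of the 6 arrays alone, whose replicates vary less (median SD of a probe 0.295 in Uninjured and 0.235 in Injured 4 hr, against 0.370 to 0.511 in the drug groups), called 531 probes higher and 1280 lower, among them all 659 of the fit of 21 arrays.

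The size of the centred difference also followed the ratio that a probe had on the Injured 4 hr arrays. Those arrays carry like RNA in both channels, yet their centred ratios ran from -2.65 to 3.62. Ranked by their mean there and parted into 10 bins of 481 to 483 probes, the probes had a median difference of 0.26 in bin 1, the lowest, and 0.40 in bin 3, but -0.98 in bin 9. For this reason each result is also given in corrected ratios. From these, a smooth curve on that mean ratio and the median of each source plate were subtracted. The mean ratio stands in for spot brightness, which was not analysed here. It is taken from the Injured 4 hr arrays, which are themselves part of the comparison. The correction therefore pulls their ratios towards 0, and a call kept in corrected ratios is not independent support. With the mean of both groups as the stand-in instead, 47 probes were called higher and 20 lower. In corrected ratios 120 probes (2.49%) were called higher and 225 (4.67%) lower. Called in both centred and corrected ratios were 26 higher (0.539%) and 193 lower (4.00%), and 1 probe called in centred ratios had the opposite sign in corrected ones. "Rose" and "fell" below refer to calls in centred ratios unless corrected ratios are named.

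**Figure D2:**
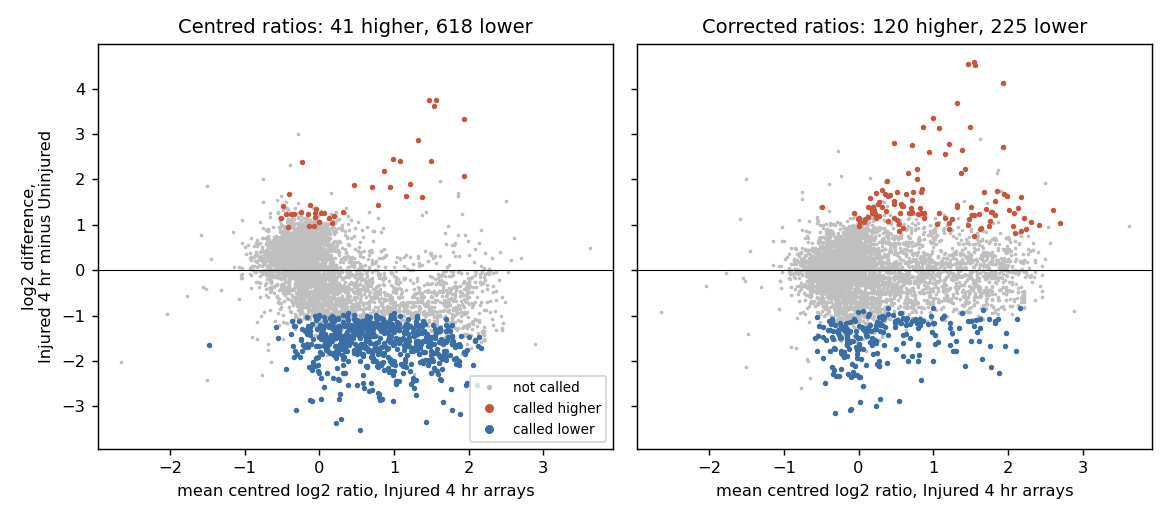
Difference between Injured 4 hr and Uninjured (vertical axis, log2) against the mean centred log2 ratio of the Injured 4 hr arrays (horizontal axis), 1 point per probe, in centred ratios (left) and corrected ratios (right). Calls are coloured. In centred ratios the 618 lower calls gather to the right, where the median of the cloud lies below 0. In corrected ratios, with 120 higher and 225 lower calls, the cloud is level, since a curve on the horizontal axis was subtracted.

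Of 18 chemokine probes tested (17 genes), 4 rose and 1 fell, and in corrected ratios 6 rose and 1 fell. Over all probes 0.850% rose and 12.8% fell, and 2.49% and 4.67% in corrected ratios. These shares are the background for each list count below. Their median difference was 0.86, against -0.03 over all probes (0.59 against 0.02 in corrected ratios). Ccl4, which draws monocytes and T cells, had centred ratios of -2.17, -1.44 and -3.27 in fresh cord and 1.40, 1.65 and 1.36 in cultured cord. All 3 cultured values lie far above the fresh ones, and the difference was 3.76 ± 0.64 (SE, n = 3 per group; adjusted p = 0.000625; corrected difference 4.55). Cxcl2, which draws neutrophils, went from -2.32, -2.11 and -2.13 to 1.69, 1.77 and 1.22, a difference of 3.75 ± 0.56 (adjusted p = 0.000189). The related neutrophil attractant Cxcl1 lay at -1.99, -1.45 and -1.24 in fresh cord and at 1.43, 1.80 and 0.72 in culture. The Cxcl1 values vary within both groups, with a wide gap between the groups (difference 2.88 ± 0.53, adjusted p = 0.00125). Cxcl10, an interferon-induced attractant of T cells, moved from -0.97, -0.77 and -0.94 to 0.78, 0.72 and 1.32 (1.83 ± 0.32, adjusted p = 0.000815). These 4 calls held in the corrected ratios and with any 1 array left out.

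The other 2 chemokines that passed a test did so less firmly. Cx3cl1, a membrane-bound chemokine made chiefly by neurons and read by microglia, fell from 0.64, 0.75 and 1.37 to -0.62, 0.05 and -0.38 (-1.24 ± 0.37, adjusted p = 0.0369). Its groups do not overlap, and the difference was -1.73 in corrected ratios, but the call was lost on leaving out any 1 of the 6 arrays (adjusted p up to 0.143), and the uncentred difference was 0.27. Ccl2, the main monocyte attractant, has 2 probes. Neither passed in centred ratios (0.86 ± 0.49 and 1.08 ± 0.40, adjusted p = 0.261 and 0.0759), while both passed in corrected ratios (1.55 and 1.38, adjusted p = 0.0332 and 0.00592).

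The promoters of the 3 CXC chemokines are shown with that of Dusp1, a phosphatase described further on. These genes were called higher, and their windows were picked because they hold motifs of factors that answer damage signals. Whether any motif bears on a rise was not tested. Each line gives the 250 bases before the start site, from RefSeq on the build GRCr8, 5′ to 3′ on the gene's strand, with every motif match in capitals. The windows are chr14:17479322-17479571 (minus strand) for Cxcl1, chr14:17467256-17467505 (minus strand) for Cxcl2, chr14:15988816-15989065 (plus strand) for Cxcl10 and chr10:17184603-17184852 (plus strand) for Dusp1.
Cxcl1: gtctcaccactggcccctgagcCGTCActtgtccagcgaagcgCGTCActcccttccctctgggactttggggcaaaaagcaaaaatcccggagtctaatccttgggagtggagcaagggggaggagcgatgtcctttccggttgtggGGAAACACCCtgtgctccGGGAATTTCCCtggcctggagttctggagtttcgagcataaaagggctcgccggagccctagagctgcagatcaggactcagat
Cxcl2: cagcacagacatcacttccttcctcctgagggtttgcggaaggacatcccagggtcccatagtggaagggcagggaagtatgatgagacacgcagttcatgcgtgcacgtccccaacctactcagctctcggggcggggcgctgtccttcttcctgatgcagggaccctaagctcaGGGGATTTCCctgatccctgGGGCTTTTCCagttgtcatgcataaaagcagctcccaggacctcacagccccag
Cxcl10: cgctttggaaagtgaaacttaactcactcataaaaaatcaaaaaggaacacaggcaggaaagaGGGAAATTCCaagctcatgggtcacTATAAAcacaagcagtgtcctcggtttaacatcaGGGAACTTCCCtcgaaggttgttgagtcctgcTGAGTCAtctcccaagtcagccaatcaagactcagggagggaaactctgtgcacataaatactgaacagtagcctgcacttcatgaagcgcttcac
Dusp1: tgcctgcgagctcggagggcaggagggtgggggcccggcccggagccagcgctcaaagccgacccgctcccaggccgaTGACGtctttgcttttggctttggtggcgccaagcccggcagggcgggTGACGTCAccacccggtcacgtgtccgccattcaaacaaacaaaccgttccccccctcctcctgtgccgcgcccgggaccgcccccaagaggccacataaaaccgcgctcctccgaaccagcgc
Motifs were searched on both strands in windows of 250 bases before to 50 after the start: NF-kB as GGGNNTTCC and, added after the windows had been seen, as GGGNNNTTCC, the heat shock element as GAANNTTC, the cAMP response element as TGACGTCA with its overlapping core TGACG, AP-1 as TGANTCA and the TATA box as TATAAA.

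With base -1 just before the start site, Cxcl2 has GGGATTTCC at -73 to -65, overlapping GGGGATTTCC at -74 to -65, and GGGCTTTTCC at -54 to -45. Cxcl1 has GGGAATTTCC at -84 to -75, and Cxcl10 has GGGAAATTCC at -187 to -178 and an AP-1 match, TGAGTCA, at -96 to -90. The Dusp1 window holds a full cAMP response element, TGACGTCA, at -124 to -117. Of 23 genes that were higher in both centred and corrected ratios, 17 have a window. The shorter NF-kB pattern, set beforehand, occurs in 2 of these (11.8%), against 6.76% of 3284 windows of tested genes. The longer one occurs in 5 (29.4%, against 6.43%). It was added after windows of these same genes had been seen, so its higher share may follow from that choice and is no support. The cAMP response element occurs in 2 (11.8%, against 2.16%) and AP-1 in 2 (11.8%, against 6.49%). The TGACG core occurs in 6 (35.3%, against 27.1%) and the heat shock element in 1 (5.88%, against 5.48%). The letters of the TATA box occur in 5 (29.4%, against 12% of tested genes), counted at any place in the window. They start at -33 in Cebpb, -32 and -237 in Il1a and -25 in Rgs1, but at -162 in Cxcl10 and 17 in Nfkbia. Over all 27 windows of genes called higher in centred ratios the longer NF-kB pattern occurs in 18.5% and the cAMP response element in 7.41%, and the TGACG core occurs in 37.9% of 145 windows of genes lower in both. These shares rest on few windows and are a description; a match is not a bound site.

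Among cytokines, 2 of 33 probes (28 genes) rose and none fell in centred ratios; 4 rose in corrected ratios, and the list's median difference was 0.50 (0.27 corrected). Il1a, an alarm cytokine released by damaged cells, went from -1.26, -0.83 and -0.88 to 0.49, 0.02 and 0.09 (1.19 ± 0.33, adjusted p = 0.0206; corrected 1.40). Csf3, the growth factor of granulocytes, went from -0.94, -1.38 and -0.75 to 0.23, -0.09 and 0.25 (1.16 ± 0.33, adjusted p = 0.0262; corrected 1.39). Neither gene's groups overlap, yet Il1a lost its call without Injured 4 hr replicate 1 or 3 or Uninjured replicate 1 (differences from 1.04 to 1.28 over all omissions, adjusted p up to 0.101), and Csf3 in every omission but that of Uninjured replicate 3 (0.98 to 1.29, adjusted p up to 0.118). Il6, which drives the acute phase response, stood at -0.44, -0.88 and -1.42 in fresh cord and at 0.45, 0.52 and 0.09 in culture. Those groups do not overlap either, but Il6 passed only in corrected ratios (1.27 ± 0.49, adjusted p = 0.0909; corrected 1.68, adjusted p = 0.0251). Tnf, an early inflammatory cytokine, passed in neither (1.19 ± 0.54, adjusted p = 0.151; corrected adjusted p = 0.109), and its fresh values ranged widely, from -1.86 to -0.36. The 2 probes of Il1b, the other interleukin 1, disagree: 0.77 ± 0.38 (adjusted p = 0.189) and -0.04 ± 0.48 (adjusted p = 0.968), and neither passed in corrected ratios. No probe of 30 for cytokine and chemokine receptors passed in centred ratios, and 2 rose in corrected ones.

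Ptgs2, the inducible cyclooxygenase and the target of several drugs of the series, rose from -1.85, -1.12 and -0.97 to 1.15, 1.25 and 0.85. The cultured values lie close together and well above the fresh ones (2.40 ± 0.39, adjusted p = 0.000498; corrected 3.13, adjusted p = 5.75e-06). It was the 1 probe called among 24 for the prostanoid and eicosanoid pathway, which covers the phospholipases, synthases and receptors around it; the list's median difference was 0.42, and 0.07 in corrected ratios.

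Single inhibitors of inflammatory signalling rose beside single inflammatory genes. Of 14 probes for NF-kB components and brakes, 3 rose and none fell (4 and none in corrected ratios). Zfp36, a protein that marks cytokine transcripts for decay, had ratios of -1.01, -0.32 and -1.41 in fresh and 1.55, 1.47 and 1.46 in cultured cord, with a difference of 2.41 ± 0.54 (adjusted p = 0.00503; corrected 3.16). Nfkbia, the inhibitor that holds NF-kB in the cytoplasm and is itself induced by NF-kB, went from -0.33, -0.49 and -1.23 to 1.17, 1.19 and 1.25. The 3 cultured arrays agree within 0.04 (SD) for Nfkbia, and the difference was 1.89 ± 0.47 (adjusted p = 0.0102; corrected 2.78), although without Uninjured replicate 3 it was 1.62 and the adjusted p 0.0552. Socs3, which blocks signalling of the Il6 receptor family, rose by 1.29 ± 0.35 (adjusted p = 0.0194; corrected 1.77). Its call was lost without Injured 4 hr replicate 1 or 2 or Uninjured replicate 3 (1.03 to 1.46 over all omissions, adjusted p up to 0.0996). After quantile normalization Zfp36, Nfkbia and Socs3 were not called (limma adjusted p = 0.0862, 0.109 and 0.467). After scaling to equal spread Zfp36 and Nfkbia were called (adjusted p = 0.0139 and 0.026) and Socs3 was not (adjusted p = 0.313).

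Early response transcription factors had 2 rises and no fall among 19 probes (4 and none in corrected ratios), with a median difference of 0.70 (0.61 corrected). Atf3, a stress factor that neurons and glia switch on after injury, went from -1.14, -1.13 and -1.72 to 0.83, 0.85 and 0.88. Its cultured values are almost the same on the 3 arrays, and all fresh values lie far below (2.19 ± 0.38, adjusted p = 0.000721; corrected 3.16). Cebpb, a factor that works with NF-kB at cytokine genes, rose by 1.63 ± 0.44 (adjusted p = 0.0166; corrected 2.55), with the call lost without Injured 4 hr replicate 1 or 3 or Uninjured replicate 3 (1.39 to 1.80, adjusted p up to 0.0779). Egr1, a zinc finger factor induced within minutes of many stimuli, passed only in corrected ratios (1.21 ± 0.43, adjusted p = 0.0645; corrected 2.14, adjusted p = 0.00251), as did Junb, a partner in AP-1 (1.16 ± 0.40, adjusted p = 0.0565; corrected 2.01), which was picked after its values were seen. Fos and Jun had no probe that could be tested.

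The MAP kinase feedback list had 1 rise and 1 fall among 14 probes (4 rises and 2 falls in corrected ratios). Over all probes 0.850% were called higher and 12.8% lower (2.49% and 4.67% in corrected ratios). Dusp1, the phosphatase that switches off p38 and JNK and whose promoter is printed above, went from 0.10, -0.21 and -0.60 to 1.47, 0.96 and 1.71 (1.62 ± 0.36, adjusted p = 0.00512; corrected 2.65). The 1 fall on the list was Sgk1, a kinase known for its induction by glucocorticoids and salt. Its ratios went from 2.18, 2.77 and 2.49 to 0.53, 0.37 and 0.88 (-1.89 ± 0.30, adjusted p = 0.0003, corrected -1.05). Neither pair of groups overlaps. Rgs1, a brake on chemokine receptors in leukocytes and microglia, rose by 1.43 ± 0.30 (adjusted p = 0.00329; corrected 2.22). It was the 1 rise among 86 probes for G proteins, cyclases, phosphodiesterases and their regulators, of which 9 fell. Both counts are near the 0.850% higher and 12.8% lower over all probes.

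Of 22 probes for inducible stress proteins 4 rose and 2 fell (6 and 2 in corrected ratios), and the list's median was -0.28 in centred and 0.42 in corrected ratios. Hspa1a, the stress-induced chaperone Hsp70, has 2 probes. The first had ratios of -2.68, -1.81 and -1.72 in fresh and 1.36, 1.72 and 1.54 in cultured cord (3.61 ± 0.47, adjusted p = 7.68e-05; corrected 4.58), and the second rose by 2.45 ± 0.49 (adjusted p = 0.00203). Its near-identical copy Hspa1b went from -1.32, -1.13 and -1.74 to 1.94, 1.72 and 2.15 (3.33 ± 0.45, adjusted p = 8.58e-05), and cross-hybridization between the copies cannot be told apart from a rise of both. No value of a cultured array overlaps a fresh one for these 3 probes. Hmox1, which breaks down haem and is induced by oxidants, rose by 2.08 ± 0.65 (adjusted p = 0.0381; corrected 2.72), measured on 2 of 3 fresh arrays, and lost the call in all 4 omissions that could be fitted, those of the 3 cultured arrays and of Uninjured replicate 2 (1.89 to 2.27, adjusted p up to 0.126). Of 22 probes for constitutive chaperones none rose and 11 fell, with a median difference of -1.23; 1 fell in corrected ratios, where the median was -0.53, and after scaling to equal spread the median was 0.14 (0.67 for the inducible list). That 1 was Canx, the calnexin of the endoplasmic reticulum, which fell by 1.99 on the log2 scale (corrected -1.13, adjusted p = 0.0282).

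**Figure D3:**
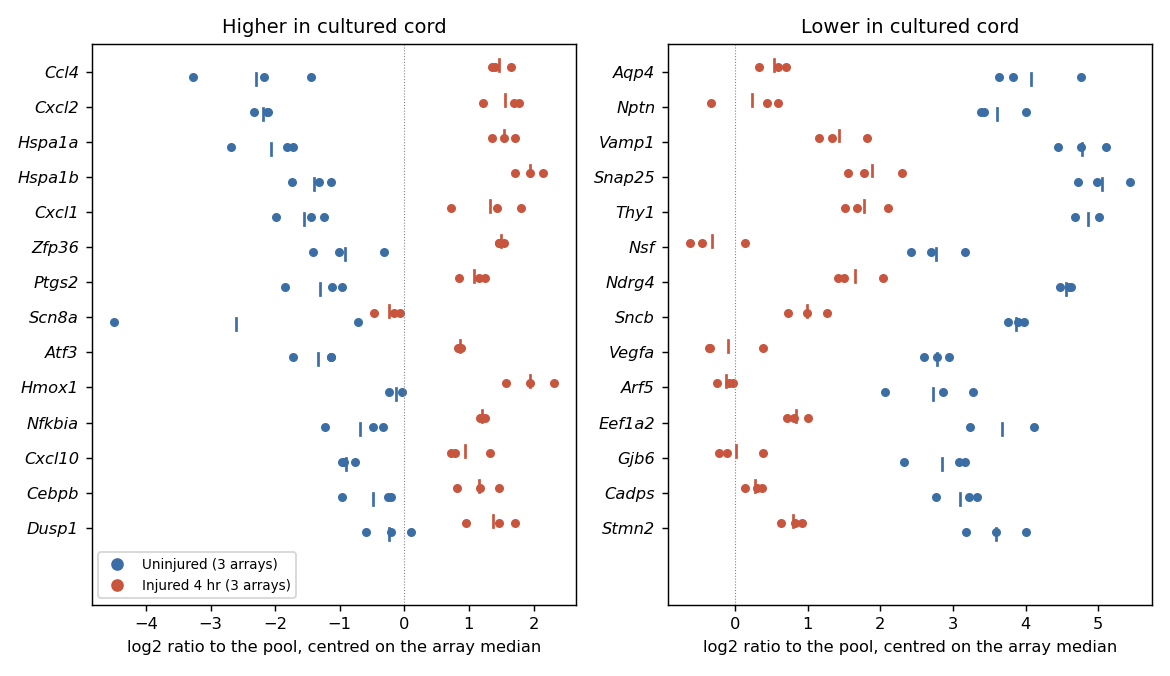
Centred log2 ratios to the pool (horizontal axis) of the 14 named genes with the largest rises (left) and the 14 with the largest falls (right), 1 point per array and a line at each group mean. Genes were drawn among called probes whose groups do not overlap, so the gaps follow from that choice; Snap25 goes from a mean of 5.05 to 1.88 and Ccl4 from -2.29 to 1.47, while the Scn8a mean in fresh cord rests on 2 values that lie far apart, -4.5 and -0.72.

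Another 15 probes rose in centred ratios and did not pass in corrected ones. Scn8a, a neuronal sodium channel, belongs to these 15: its probe was called (2.38 ± 0.67, adjusted p = 0.0219) on fresh values of -4.5 and -0.72 with 1 array missing. The call was lost on omitting any 1 of the cultured arrays (adjusted p up to 0.069), and its second probe differed by 0.59 ± 0.50 (adjusted p = 0.456). Mmp12, the macrophage elastase, also rose in centred ratios only (1.43 ± 0.43, adjusted p = 0.0442; corrected adjusted p = 0.0997), on 2 fresh values, and lost its call in the 4 omissions that could be fitted (1.26 to 1.60, adjusted p up to 0.148). Epha3, an axon guidance receptor, rose in both, with differences of 1.27 ± 0.35 and 1.26, but lost its call without Injured 4 hr replicate 2 or 3 or Uninjured replicate 1 or 3 (1.02 to 1.67 over all omissions, adjusted p up to 0.0987).

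Corrected ratios added 94 rises, whose centred differences ran from -0.2 to 1.29. Some were in genes of the damage response, and whether such genes are frequent among the 94 was not tested. The following were picked after their values were seen, and none passed in centred ratios. Timp1, which inhibits matrix metalloproteinases, had a corrected difference of 1.97 (adjusted p = 0.012), Plaur, the urokinase receptor, of 1.33 (adjusted p = 0.012) and Icam1, an adhesion protein for leukocytes, of 1.30 (adjusted p = 0.0126). Hbegf, a ligand of the EGF receptor, differed by 1.45 (adjusted p = 0.0238) and Irf1, an interferon response factor, by 1.73 (adjusted p = 0.00259). Plk2 and Gadd45g, which are induced by activity and stress, differed by 1.63 and 1.73, and Ppp1r15a, which restores translation after stress, by 1.72. The centred differences of these 8 genes ran from 0.84 to 1.19.

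Of 37 probes for neuronal markers (35 genes) 19 fell and none rose, with a median difference of -1.45. After correction 13 were lower and 2 higher (median -0.67). In uncentred ratios 8 were called higher and 4 lower, beside 2389 higher and 14 lower over all probes. The uncentred median was 0.06, below the 1.47 of all probes. Centred on Gapdh, 11 were called higher and 5 lower, beside 2905 and 12 over all probes. After scaling to equal spread none of the 37 fell and 1 rose (median -0.03, against 0.01 for all probes), and after quantile normalization 2 fell and 1 rose. Snap25, a SNARE protein of the presynaptic membrane, had ratios of 4.98, 5.44 and 4.72 in fresh cord and 1.55, 1.78 and 2.30 in cultured cord, a difference of -3.17 ± 0.50 (adjusted p = 0.000345; corrected -2.27). Thy1, a surface glycoprotein of mature neurons, was measured at 5.01 and 4.68 on 2 fresh arrays and at 1.52, 1.68 and 2.10 in culture (-3.08 ± 0.44, adjusted p = 0.000139; corrected -2.14). Both genes lie far above the array median in either group, and their groups do not overlap. Nefm, the medium neurofilament of axons, went from 4.20, 4.73 and 4.24 to 1.92, 1.72 and 1.65 (-2.62 ± 0.51, adjusted p = 0.00158; corrected -1.68). Stmn2, which regulates microtubules in growing axons, Sncb, a synuclein of nerve endings, and Uchl1, a ubiquitin hydrolase abundant in neurons, fell (-2.79, -2.88 and -2.52) and held in corrected ratios. Fewer neurons and less of a transcript per neuron cannot be told apart in such tissue RNA.

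Synaptic vesicle and SNARE genes showed the same direction in centred ratios, with 22 of 61 probes lower and none higher (median -0.72). In corrected ratios 10 were lower and 1 higher (median -0.36). Uncentred, 11 were called higher and 2 lower (median 0.78), and centred on Gapdh 24 were higher and 1 lower. After quantile normalization 2 were lower, and after scaling to equal spread none. Vamp1, a vesicle SNARE prominent in spinal cord, went from 4.45, 5.10 and 4.76 to 1.81, 1.15 and 1.34 (-3.34 ± 0.43, adjusted p = 7.68e-05; corrected -2.12). Nsf, the ATPase that takes SNARE complexes apart, went from 2.69, 3.17 and 2.42 to -0.45, 0.14 and -0.62 (-3.07 ± 0.50, adjusted p = 0.000815; corrected -3.14). The difference for Nsf was as large after correction as before. Cplx1, which clamps fusion, fell (-2.37), as did Cadps, which primes dense-core vesicles (-2.83). Syp and Sv2a, membrane proteins of the vesicle picked after their values were seen, fell too (-2.31 and -2.19).

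A fall relative to the median probe was not always a fall in uncentred ratios. Of the 618 probes called lower, 278 had a positive difference in the uncentred ratios. Only 14 probes were called lower in centred, corrected and uncentred ratios, and 12 of these have a symbol: Thy1, Snap25, Vamp1, Nefm, Sncb, Aqp4, Nptn, Ndrg4, Eef1a2, Serpine2, Arf5 and Prnp. Nptn, an adhesion protein of synapses, went from 4.00, 3.43 and 3.39 to 0.44, 0.59 and -0.33 (-3.37 ± 0.36, adjusted p = 1.95e-05), and its uncentred difference was -1.86 (adjusted p = 0.00761). It was also called lower after quantile normalization and after scaling to equal spread, which few falls were: of the 49 falls given here by value, 4 kept their call after quantile normalization and 2 after scaling, where Snap25 differed by -0.44, Thy1 by -0.43, Nefm by -0.21, Ndrg4 by -0.45 and Vamp1 by -0.88. Of the 21 rises given by value, 8 and 13 kept theirs. Ndrg4, a cytoplasmic protein of neurons, and Eef1a2, the elongation factor of neurons and muscle, fell in centred ratios (-2.91 and -2.84), with uncentred differences of -1.40 and -1.53. Serpine2, a protease inhibitor made by glia and neurons, fell on both of its probes (-2.66 ± 0.39 and -2.52 ± 0.43), as did Prnp, the prion protein gene, which was picked after its values were seen (-2.60 ± 0.50 and -2.45 ± 0.46). The 2 probes of Arf5, a small GTPase of the Golgi, disagree in size: -2.85 ± 0.40 on one and -1.37 ± 0.38 on the other, which had a corrected difference of -0.15 and a positive uncentred one of 0.15, and lost its call without Injured 4 hr replicate 2 or 3 or Uninjured replicate 1 or 2 (adjusted p up to 0.0896).

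Motor neuron and cholinergic genes had 6 falls and no rise among 11 probes of 8 genes, and 5 falls in corrected ratios. Their median was -0.99 in centred, -0.92 in corrected and 0.52 in uncentred ratios, and none passed after quantile normalization or scaling to equal spread. In uncentred ratios 3 were called higher and none lower. Slc5a7, the transporter that loads choline into cholinergic endings, went from 1.80, 1.85 and 2.35 to -0.59, 0.48 and -0.14 (-2.08 ± 0.38, adjusted p = 0.00112; corrected -2.24). Prph, a neurofilament-like protein of motor and sensory neurons, went from 2.75, 3.24 and 3.09 to 1.08, 0.38 and 0.05 (-2.52 ± 0.43, adjusted p = 0.000767; corrected -1.73). No cultured array reached a fresh one for either gene. Slc18a3, the vesicular acetylcholine transporter, picked after its values were seen, fell by 0.99 on the log2 scale (adjusted p = 0.0378; corrected -0.92) and lost its call in every omission but that of Uninjured replicate 2 (-1.16 to -0.81, adjusted p up to 0.159). Calca, the gene of calcitonin gene-related peptide, fell on both probes (-1.67 ± 0.47 and -1.49 ± 0.49); the second was picked after its values were seen. The first lost its call without any 1 of the cultured arrays (adjusted p up to 0.0877), the second in every omission but that of Injured 4 hr replicate 1 (-1.96 to -1.0, adjusted p up to 0.253). The synthesizing enzyme gene Chat had no probe that could be tested.

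Astrocyte markers fell at 13 of 24 probes (23 genes) and rose at none, with a median of -1.50. In corrected ratios 5 fell, with a median of -0.74. Uncentred, 1 was called higher and 1 lower, with a median of 0.02. None fell after quantile normalization or after scaling to equal spread, where the list's median was 0.00. Aqp4, the water channel of astrocyte endfeet, went from 3.82, 4.76 and 3.63 to 0.33, 0.70 and 0.59, the largest fall among named probes (-3.53 ± 0.78, adjusted p = 0.00522; corrected -2.89, adjusted p = 0.0328). Gjb6, the connexin 30 of astrocyte gap junctions, went from 2.33, 3.08 and 3.16 to -0.22, 0.38 and -0.11 (-2.84 ± 0.48, adjusted p = 0.000613; corrected -2.91). The groups do not overlap for either. Slc4a4, a bicarbonate transporter, and Fgfr3, a growth factor receptor of astrocytes, fell (-2.38 and -2.27), and both had a corrected difference of -2.35. Gfap, the intermediate filament that defines astrocytes, went from 3.91, 4.29 and 3.68 to 2.00, 1.59 and 2.00 (-2.09 ± 0.53, adjusted p = 0.0119; corrected -1.08, adjusted p = 0.0249). Its call was lost without Injured 4 hr replicate 2 or Uninjured replicate 2 (adjusted p up to 0.0596), and after scaling to equal spread the difference was 0.17.

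Oligodendrocyte and myelin genes had 3 falls and no rise among 22 probes, with a median of -0.83 that was -0.02 in corrected ratios, where 1 rose and 1 fell, and 0.91 after scaling to equal spread. Mbp, the myelin basic protein gene, did not pass in either (-1.41 ± 0.58, adjusted p = 0.108; corrected -0.50, adjusted p = 0.265), and its difference was positive in 4 other scalings. None of 19 microglia and macrophage probes passed in centred ratios, and 4 rose in corrected ones, with medians of 0.28 and 0.39. Itgam, the integrin CD11b of microglia and myeloid cells, differed by 0.95 ± 0.36 (adjusted p = 0.0864; corrected 1.67, adjusted p = 0.012), and Aif1, the calcium-binding protein Iba1, by 0.32 ± 0.41 (adjusted p = 0.624; corrected 0.07). C3ar1, the receptor of complement C3a, passed in corrected ratios (1.71, adjusted p = 0.0282), as did C1qb and Ctss (0.97 and 1.07). Centred differences of these 3 were 1.28, 0.12 and 0.28 (adjusted p = 0.0731, 0.858 and 0.725), and the C1qb groups overlap. All 3 and Itgam were picked after their values were seen.

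Among markers of single cell types, 8 neuronal probes had a median centred ratio of 3.99 in fresh and 1.76 in cultured cord, 7 astrocyte probes 3.07 and 1.87, and 7 oligodendrocyte probes 2.89 and 1.79. These are ratios to a culture pool, so they do not give the level of any cell type in the cord. The 4 blood marker probes had medians of -0.45 and -0.17, none passed in centred ratios and 1 rose in corrected ones. The haemoglobin genes Hbb and Hba-a1, picked after their values were seen, had corrected differences of 0.87 and 1.04 (adjusted p = 0.0408 and 0.0465). Their centred differences were only 0.09 and 0.28 (adjusted p = 0.924 and 0.764), and fresh and cultured values overlap for both. Of the blood, granulocyte and lymphocyte list, 3 of 23 probes rose in corrected ratios and none passed in centred ones. Endothelial markers did not pass in centred ratios (5 probes, median difference 0.28), nor did Schwann cell markers (2 probes, -0.69) or meningeal markers (7 probes, -0.66), while 1 of 3 muscle probes fell. Rbfox3, Tubb3, Chat, Isl1, Cd68, Hba1 and Myh4 had no testable probe. What share other cells, blood or roots have in the results was not tested.

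Most growth factor and receptor probes were not called. Vegfa, the growth factor of vessels that hypoxia induces, went from 2.95, 2.78 and 2.60 to -0.36, 0.39 and -0.34 (-2.88 ± 0.39, adjusted p = 8.58e-05; corrected -3.05). Fgf9, a growth factor made by neurons and glia, went from 2.10, 1.90 and 2.02 to -0.22, 0.16 and -0.35 (-2.14 ± 0.43, adjusted p = 0.00317; corrected -2.28). The fresh and cultured arrays do not overlap for either gene. Neither call held in 3 other scalings: Vegfa differed by -1.37 uncentred, -1.66 after quantile normalization and -1.75 after scaling to equal spread (adjusted p = 0.0528, 0.108 and 0.0578), and Fgf9 by -0.63, -1.18 and -1.35 (adjusted p = 0.487, 0.584 and 0.259). Ntrk2, the receptor of brain-derived neurotrophic factor, fell by 2.41 on the log2 scale (corrected -1.99). Bcan, the proteoglycan brevican of the matrix around synapses, fell on both of its probes (-1.93 ± 0.35 and -1.92 ± 0.42; corrected -1.55 and -2.28). In all, 5 of 49 secreted growth factor probes fell and none rose, and 7 of 49 receptor probes fell and 1 rose, near the 12.8% called lower among all probes.

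Receptors and transporters of inhibitory transmission fell at single genes. Gabrg1, a GABA receptor subunit, went from 1.91, 2.46 and 1.80 to 0.07, 0.35 and -0.59 (-2.11 ± 0.42, adjusted p = 0.00232, corrected -2.31). It was the 1 called among 23 GABA and glycine receptor probes in corrected ratios, of 4 in centred ones. In corrected ratios this is near the 4.67% called lower over all probes. Slc6a11, the GABA transporter GAT3 of astrocytes, fell by 2.03 on the log2 scale (corrected -2.07). Glutamate receptor and scaffold genes had 2 falls among 36 probes, and voltage-gated and potassium channels 9 falls and 1 rise among 63, of which no fall passed in corrected ratios. Of 69 probes for second messenger kinases 14 fell and none rose, and of 68 for phosphatases 12 fell and 1 rose, beside 12.8% lower and 0.850% higher over all probes; in corrected ratios 5 and 1 fell. Camk2n2, an inhibitor of the kinase CaMKII, and Camk2g, a subunit of that kinase, fell (-2.63 and -2.23), as did Ppp3r1, the regulatory subunit of calcineurin (-2.49), and Gng3, a neuronal G protein subunit (-2.44); these 4 held in corrected ratios.

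Housekeeping groups show how much the scaling decides. Proteasome and ubiquitin genes had 18 falls among 36 probes in centred ratios (median -1.13) and 1 fall and 1 rise in corrected ones (-0.42). Respiratory chain and ATP synthase genes had 13 falls among 33 probes (-1.28) and 1 in corrected ratios (-0.21). That 1 was Atp5mc1, a subunit of the ATP synthase ring, with differences of -2.23 ± 0.43 and, corrected, -1.09 (adjusted p = 0.0479). Cytosolic ribosomal proteins had no call among 61 probes in either; their median was -0.29, 0.21 in corrected ratios and 1.26 after scaling to equal spread. Citrate cycle genes had 7 falls among 10 probes, of which Dlst, a subunit of the 2-oxoglutarate dehydrogenase, picked after its values were seen, also passed in corrected ratios (-1.82 ± 0.32; corrected -1.31). Glycolysis and hypoxia genes had 13 falls among 36 probes and 5 in corrected ratios, among them the glycolytic enzyme Aldoa (-2.29 ± 0.51; corrected -1.36). The peroxiredoxin Prdx5 fell as well (-2.50 ± 0.42; corrected -1.43), 1 of 10 falls among 33 antioxidant probes, where Hmox1 was the 1 rise.

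**Figure D4:**
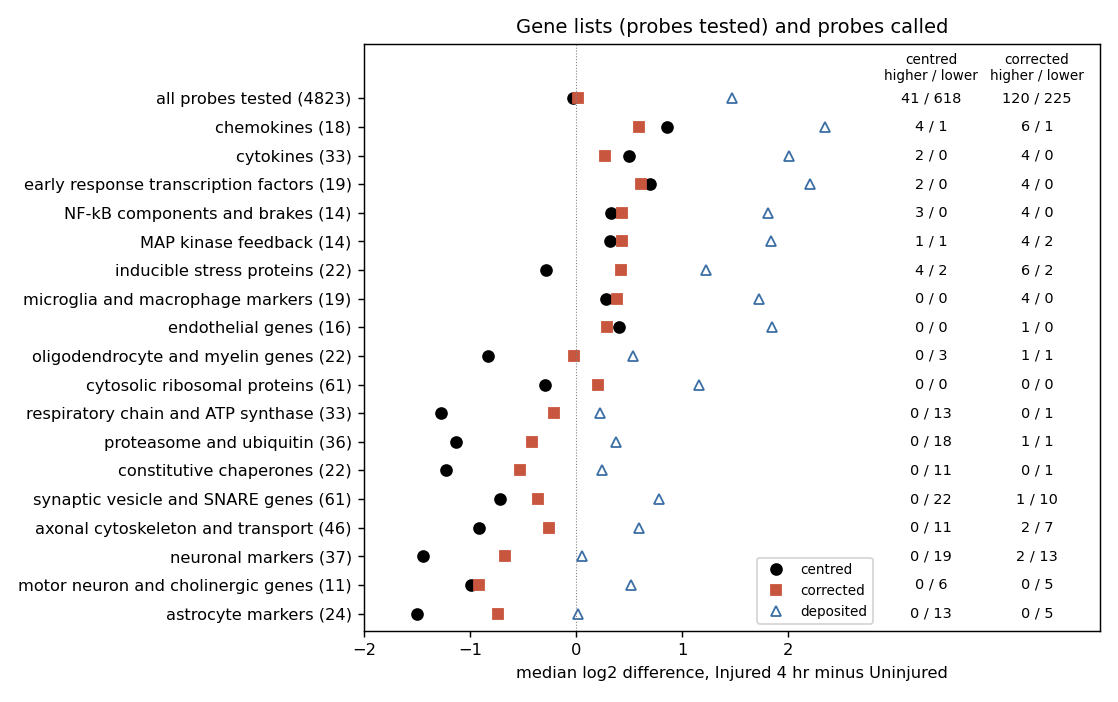
Median log2 difference between Injured 4 hr and Uninjured (horizontal axis) for all probes and for 18 gene lists, in centred, corrected and deposited (uncentred) ratios, with the number of probes tested in brackets and the numbers called higher and lower at the right. Chemokines lie right of all probes in each kind of ratio (0.86, 0.59 and 2.35), and neuronal, cholinergic and astrocyte lists lie left of them in each.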

How the data were processed

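The authors deposited 1 table of log2 ratios of sample RNA over pool RNA for 21 2-colour arrays. Steps not given in the sources used here include dyes, scanner, background correction, spot filter and normalization. The log2 base was read from exact logs of small whole-number ratios, clear on the drug arrays and too few on the Uninjured arrays to settle it there. Array medians differ, so the table was taken as not normalized between arrays. The number of arrays limits the precision.

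Each array was centred on its median over all measured probes (4962 of 5376 had a value on some array), and the 51 Gapdh control spots were averaged. All 21 arrays entered 1 limma fit (version 3.58.1, R 4.3.3) with 1 coefficient per group. Probes with at least 2 values per group were tested 2-sided with Benjamini-Hochberg adjustment over 4823 probes in this 1 comparison; adjusted p values and SE come from this fit. Unadjusted p fell below 0.05 at 1399 probes (984 in corrected ratios). The fit was checked on simulated data. Corrected ratios are residuals of a loess curve (span 0.4) on the mean Injured 4 hr ratio, then centred on source plates with at least 20 probes. Arrays were taken from the titles; single array values were compared by exact permutation.

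Symbols came from the deposited annotation for 4423 probes and were updated by gene identifier for 4375; 547 measured probes without a single symbol were counted but not named. Different probes of a gene were kept apart.

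Named genes are those with the 15 largest rises and the 15 largest falls among called probes whose groups do not overlap, up to 4 called probes per list and direction, and a panel (Il1b, Il6, Tnf, Ccl2, Ptgs2, Fos, Jun, Egr1, Gfap, Mbp, Chat, Nefl, Aif1, Hspa1a, Hmox1), of which the text gives a part. Members, the 51 lists and corrections were chosen with earlier results of these data known. Alternatives were other centring and normalization, 3 versions of the correction, 3 values per group, the 6 arrays alone, a replicate block, each array left out, and Uninjured ratios against 0. Promoter windows came from RefSeq (GRCr8).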

Additional observations from a re-analysis of the deposited data

How the results depend on the processing

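The count of 659 called probes was 627 with 3 values required per group and changed by over 1.5 times in most other settings. It was 2403 in uncentred ratios, 2917 after centring on Gapdh, 18 after quantile normalization and 29 after scaling to equal spread. In corrected ratios it was 345, with 295 when the stand-in was taken without the array itself and 67 when taken from the 6 arrays. The 6 arrays alone gave 1811, and Uninjured ratios against 0 gave 3000. That last contrast leaves out the Injured 4 hr means, though all 21 arrays entered its estimate of spread. With 1 array left out it ran from 327 to 474: 371, 327 and 350 on omitting Injured 4 hr replicates 1, 2 and 3, and 474, 341 and 403 on omitting Uninjured replicates 1, 2 and 3. The fit with the replicate number as a block called 664 probes; arrays with the same number share only a number, since their deviations correlated at -0.03, 0.06 and -0.02. Of the 70 called probes given by value, 67 were called in corrected ratios, 33 in uncentred ones, 12 after quantile normalization and 15 after scaling. In every omission with a value, 55 kept their call. With the stand-in taken from the 6 arrays only 25 of the 70 were called, 15 of 21 rises and 10 of 49 falls. Snap25, Thy1, Vamp1, Nsf, Aqp4, Il1a and Socs3 were among those not called there.

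Signs turned in uncentred and Gapdh-centred ratios for Cx3cl1 (0.27 and 0.47), the second Calca probe (0.02 and 0.22), Slc18a3 (0.52 and 0.71), the second Arf5 probe (0.15 and 0.34, and 0.13 after scaling) and Mbp (0.10 and 0.30, with 0.11 after quantile normalization and 0.83 after scaling). Gfap was at 0.17 after scaling. The second Il1b probe was at 1.48 uncentred, 1.67 centred on Gapdh, 0.48 after quantile normalization, 0.68 after scaling, 0.87, 0.93 and 0.86 in the 3 corrections, and between -0.20 and 0.23 with 1 array left out. For Uninjured ratios against 0 the sign was turned, so a value is pool minus fresh cord. A negative value there means a fresh cord ratio above the array median. In that setting Egr1 was at -0.15, C1qb at -1.62, Ctss at -2.02, Hbb at -2.08 and Hba-a1 at -2.42. Without Uninjured replicate 3, C1qb was at -0.09 and Hbb at -0.01. The cause of these changes was not tested. Spot intensities were not analysed here, so how far dim signal limits a ratio was not tested.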
